A study of Mus musculus with 4 samples.

Results

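B cells secrete cytokines as well as antibodies, and the transcripts of 10 cytokine genes, Il10, Ebi3, Il12a, Il6, Lta, Ltb, Tnf, Tgfb1, Csf1 and Csf2, were examined in 2 kinds of mouse B cell. The genes were chosen as a list of cytokines known to be made by B cells, and all 10 were found among the 20599 gene symbols that the files hold. RNA-Seq was carried out on 2 libraries of B1a cells from the peritoneal cavity and 2 libraries of B2 cells, the follicular (FO) B cells of the spleen. All 4 came from wild-type C57BL/6 mice and carry an age of 4 weeks in the labels. A supplementary figure legend of the study also gives 4 weeks for both cell types, whereas its methods give an older age for the follicular cells. According to those methods the mice were littermate controls of Dnmt3a-deficient animals, and the sort took B1a cells as CD23- IgM+ CD5+ and FO cells as IgDhi IgMlo CD21+, among other markers. The labels name no treatment. Because B1a and B2 cells differ here in cell type, in tissue and, by the methods, in age, these cannot be told apart in any difference between them.

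B1a cells are a self-renewing population of the body cavities, known for natural antibody and for making IL-10 when stimulated, whereas follicular B2 cells recirculate through the spleen and lymph nodes and respond to antigen with T cell help. B cells that restrain inflammation do so in part by secreting IL-10, IL-35 and TGF-beta. IL-35 and IL-27 share the Ebi3 subunit, and IL-35 and IL-12 share the subunit encoded by Il12a. Lymphotoxin and TNF are neighbours in the major histocompatibility complex, and lymphotoxin on the B cell surface is needed for normal follicles in lymphoid organs.

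The libraries held 11578785 and 11558489 gene counts in B1a cells and 11032732 and 18588623 in B2 cells. CPM values are counts brought to a common library total with TMM factors (the trimmed mean of M values), and TPM values also take gene length into account. Markers of the sort went with the labels, since Fcer2a (CD23) was 63.7 and 60.9 CPM in B1a cells against 934 and 896 CPM in B2 cells, and Itgam (CD11b), found on peritoneal B1a cells, was 148 and 127 CPM against 6.46 and 1.90 CPM. The 2 B1a libraries stood further apart than the 2 B2 libraries (Pearson r of log2(CPM + 1) across genes of 0.889 and 0.981, where genes are not independent replicates), and 200 genes with 100 counts or more in one B1a library had no more than 3 in the other, as did 4 genes between the B2 libraries. Of 12078 genes tested with edgeR's quasi-likelihood test, 693 (5.74%) passed an adjusted p of 0.05, of which 512 (4.24%) were higher in B1a cells and 181 (1.5%) lower. On log2(TPM + 1) values tested with limma 266 were higher in B1a cells and 233 lower, and that scale moved the median log2 difference of all genes by -0.27. In bulk samples such as these, fewer cells of a type and less RNA per cell cannot be told apart.

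The cytokine genes ranged from 0 to 332 CPM. Il6 and Csf2, which encode interleukin 6 and the growth factor GM-CSF, had 0 counts in all 4 libraries, and a count of 0 allows up to 3 counts, which is 0.157 to 0.270 CPM depending on the library. Il10 had 0 counts in both B2 libraries. The other 7 genes were above 3 counts in every library. Il6 and Csf2 were left out of the test by the filter on low counts, and 8 genes were tested.

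In B2 cells the order of mean TPM was Ltb (851 ± 23.9 TPM, SD, n = 2), Tgfb1 (399 ± 1.71 TPM), Lta (65.1 ± 14.5 TPM), Il12a (58.2 ± 12.1 TPM), Tnf (36.3 ± 4.95 TPM), Ebi3 (25.8 ± 4.76 TPM) and Csf1 (6.32 ± 0.32 TPM). Only Lta and Il12a among neighbours in this order had overlapping replicates. In B1a cells the order was Ltb (691 ± 57.7 TPM), Tgfb1 (223 ± 41.4 TPM), Ebi3 (81.9 ± 32.4 TPM), Il12a (63.5 ± 60.2 TPM), Il10 (27.3 ± 18.2 TPM), Lta (19 ± 8.77 TPM), Csf1 (18.2 ± 14.7 TPM) and Tnf (13.7 ± 0.31 TPM). From Ebi3 downward every pair of neighbours in B1a cells overlapped, although Ebi3 lay above Il10, Lta, Csf1 and Tnf, and Il12a and Il10 above Tnf, in both B1a libraries. Ltb ranked between 142 and 190 among all symbols in the 4 libraries, and Tgfb1 between 317 and 726.

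**Figure D1:**
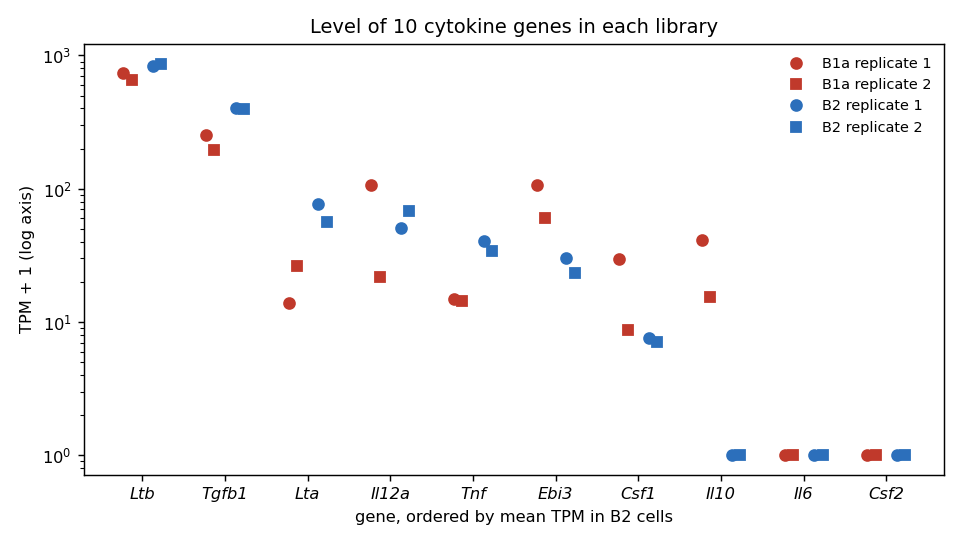
Level of each of the 10 cytokine genes in each library as TPM + 1 on a log axis, ordered by mean TPM in B2 cells; red marks B1a cells and blue B2 cells, circles replicate 1 and squares replicate 2. Ltb and Tgfb1 lie above the other 8 genes in all 4 libraries, Il10 is off the baseline only in B1a cells, and Il6 and Csf2 lie on the baseline throughout.

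Only Il10 passed the test between B1a and B2 cells, 1 of 8 genes (12.5%) beside 5.74% of all genes tested, and it entered the test only through its counts in B1a cells. Groups did not overlap in CPM for 6 of the 8 (75%), beside 54.3% of all genes tested. Of these 6, Il10, Ebi3 and Csf1 were higher in B1a cells and Lta, Tnf and Tgfb1 lower. The 8 genes had a median log2 fold change of 0.15, against -0.03 for all genes tested. The number that passed rose to 3 with DESeq2 and to 6 and 7 without B1a replicate 1 or 2, where the single B1a library left is assumed to vary like the B2 pair.

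Il10 encodes interleukin 10, which restrains macrophages, dendritic cells and T cells, and lies on chromosome 1 at 131019845 to 131024970 (GRCm38). It had 239 and 88 counts in the B1a libraries, or 21.4 and 7.91 CPM, and 0 and 0 in the B2 libraries. Both B1a libraries thus lay above both B2 libraries, although the B1a replicates themselves differed by 2.71-fold. The B1a mean of 14.7 ± 9.55 CPM (SD, n = 2) was at least 70.3-fold higher than the 3 counts per library that a count of 0 allows, and the lower B1a replicate was at least 30.4-fold higher. The difference passed the edgeR quasi-likelihood test (adjusted p = 0.0322), but Il10 passed the filter on low counts only through the B1a libraries. Without each library in turn, the fitted log2 fold change of Il10 ran from 9.78 to 11.2. In those fits 1 group held a single library, which shows no spread of its own. The fitted value ran from 4.66 to 10.6 over the 10 alternatives that kept all libraries and tested Il10. With 0 counts in both B2 libraries this value depends on how a fit treats 0, so the size is given here by the bounds above. Il10 could not be tested with 10 counts required in every library. Of the 10 other alternatives, it missed the threshold only on log2(TPM + 1) values with no filter (adjusted p = 0.0637). Their adjusted p ranged from 3.46e-07 to 0.0637.

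Summed mast cell and macrophage markers were also higher in both B1a libraries, whereas the summed T cell markers overlapped and those of dendritic cells, NK cells, neutrophils and eosinophils were not higher. Summed over 7 mast cell genes, CPM was 47.0 and 17.5 in B1a cells and 6.67 and 4.54 in B2 cells, with 6 of the 7 above 3 counts in both B1a libraries and Fcer1a at 0 in all 4. Within that list Ms4a2 went the other way, at 0.99 and 1.08 CPM in B1a cells and 5.20 and 3.596 CPM in B2 cells. Cma1, the mast cell chymase, was 21.9 and 4.68 CPM in B1a cells and 0 in both B2 libraries. It was just under the threshold (adjusted p = 0.0499, edgeR) and, like Il10, passed the filter on low counts only through the B1a libraries. Summed over 12 macrophage genes, CPM was 245 and 289 in B1a cells and 74.9 and 80.2 in B2 cells, with 10 of the 12 above 3 counts in both B1a libraries and Lyz2 (lysozyme) alone passing the test, while Csf1r, the receptor for M-CSF, overlapped between the cell types. Il10 and the sums of the mast cell, B cell, T cell and sort markers were higher in B1a replicate 1. The sums of the macrophage, dendritic cell, NK cell, erythroid and plasma cell markers were higher in B1a replicate 2. Within the mast cell list Kit was nearly equal in the B1a libraries (6.72 and 6.65 CPM). Of the other tested cytokine genes, Ebi3, Il12a, Csf1, Tgfb1, Ltb and Tnf were likewise higher in B1a replicate 1, Tnf by only 1.006-fold. Lta alone was higher in B1a replicate 2. The part of mast cells or macrophages in these values was not tested.

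The 5 tested genes with the pattern nearest to Il10, by Euclidean distance in log2(CPM + 1) over the 4 libraries, were Trim40 (distance 0.40), Gnb3 (0.59), Pcdh9 (0.63), Cma1 (0.65) and Dlec1 (0.67). The receptor chains for IL-10 were measured in both cell types. Il10ra, the chain that binds IL-10, was 211 and 187 CPM in B1a cells and 299 and 306 CPM in B2 cells, and its log2 fold change of -0.61 (SE 0.13) missed the threshold (adjusted p = 0.0584, edgeR). In 7 of the 11 alternatives that kept all libraries Il10ra passed, with adjusted p from 0.00357 to 0.0637. Il10rb, the shared signalling chain, was 74.6 and 68.1 CPM in B1a cells and 75.7 and 67.5 CPM in B2 cells, and the 95% interval of its log2 fold change ran from -0.50 to 0.50.

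**Figure D2:**
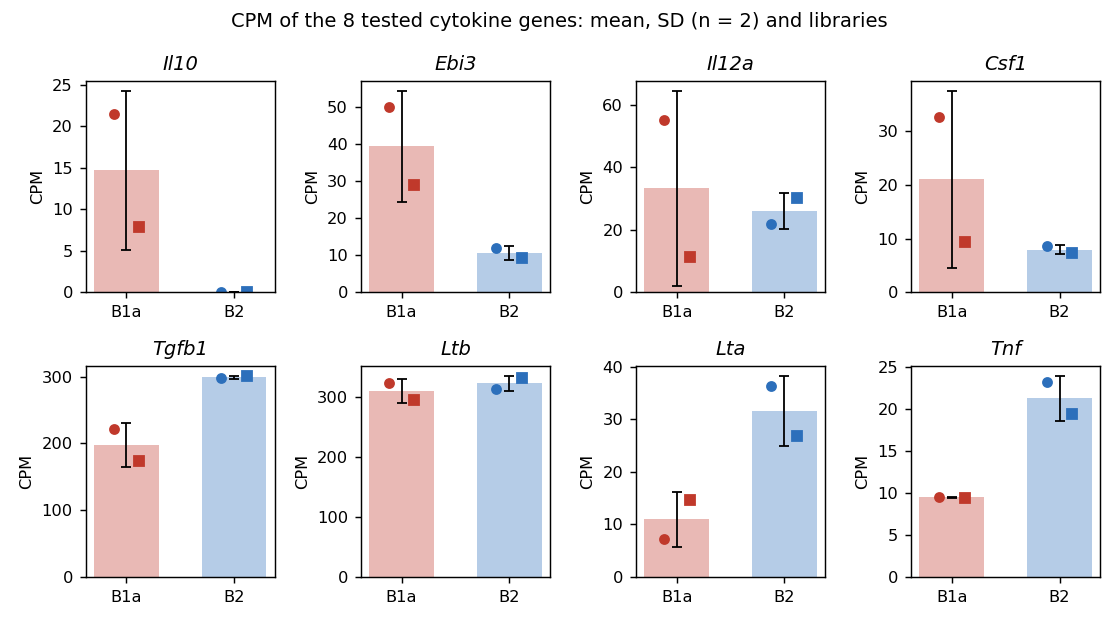
CPM of the 8 tested cytokine genes in B1a (red) and B2 (blue) cells, each panel with its own axis from 0; bars are means, error bars are SD (n = 2), circles are replicate 1 and squares replicate 2. Il10 stands at 21.4 and 7.91 CPM in B1a cells and at 0 in B2 cells, whereas Il12a and Ltb overlap between the cell types.

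Of the 2 subunits of IL-35, Ebi3 was higher in both B1a libraries and Il12a overlapped between the cell types. Ebi3 (chromosome 17, 55952623 to 55957022) was 49.8 and 28.8 CPM in B1a cells and 11.8 and 9.22 CPM in B2 cells. The fitted level was 3.75-fold higher in B1a cells, with a log2 fold change of 1.91 (SE 0.44, 95% interval 0.84 to 2.98), which missed the threshold over all genes (adjusted p = 0.0681, edgeR). Ebi3 passed in 5 of the 11 alternatives that kept all libraries, with adjusted p from 0.00186 to 0.0975, and the direction was the same in all of them. Without B1a replicate 2 its adjusted p was 5.99e-14 and without B1a replicate 1 it was 0.000109, while without B2 replicate 1 or 2 it was 0.167 or 0.36.

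Il12a (chromosome 3, 68690644 to 68698550) was 55.2 and 11.2 CPM in B1a cells and 21.9 and 30.0 CPM in B2 cells. The B1a replicates lay on either side of both B2 replicates and differed by 4.95-fold, the widest gap among the 8 genes. The log2 fold change was 0.35 (SE 0.72, 95% interval -1.41 to 2.12, adjusted p = 0.855, edgeR). Its sign changed in 5 of the 11 alternatives that kept all libraries, and also on leaving out B1a replicate 1. Without B1a replicate 1 the log2 fold change was -1.23 (adjusted p = 0.00134), and without B1a replicate 2 it was 1.08 (adjusted p = 3.39e-05). The partner subunits were scarcely counted. Il12b, which joins Il12a in IL-12, had 0 and 11.25 counts in B1a cells and 2.33 and 20.49 in B2 cells, Il27 had a single count in 1 B2 library, and Il23a had none. Both IL-35 subunits were therefore above 3 counts in all 4 libraries, while Il27 and Il23a were not above 3 in any.

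Ltb, Tnf and Lta lie side by side within 11072 bases of chromosome 17, with 3061 bases between Ltb and Tnf and 1157 between Tnf and Lta. Ltb (35194507 to 35196305, plus strand) encodes lymphotoxin beta, the membrane anchor of the lymphotoxin heterotrimer, and Tnf (35199367 to 35202007) and Lta (35203165 to 35205578), both on the minus strand, encode TNF and lymphotoxin alpha. Each of the 3 symbols has 4 entries in the files with the same transcripts, among which the authors' quantification divided the reads equally, so the entries were summed. The 250 bases before the starts of Ltb and Tnf are shown because these neighbours differed in level and in their values between the cell types. Sequences are from RefSeq (GRCm38.p6), 5′ to 3′ on the strand of the gene, at chr17:35194257-35194506 for Ltb and chr17:35202008-35202257 for Tnf, and capitals mark a match, on either strand, to a 10-base NF-kB motif with the fifth position free (Ltb) or to the TATA box TATAAA (Tnf).
Ltb: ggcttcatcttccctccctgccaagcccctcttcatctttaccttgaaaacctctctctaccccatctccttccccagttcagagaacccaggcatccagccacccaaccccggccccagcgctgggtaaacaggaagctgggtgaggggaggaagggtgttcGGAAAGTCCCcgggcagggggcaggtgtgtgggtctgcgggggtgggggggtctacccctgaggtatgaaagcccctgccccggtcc
Tnf: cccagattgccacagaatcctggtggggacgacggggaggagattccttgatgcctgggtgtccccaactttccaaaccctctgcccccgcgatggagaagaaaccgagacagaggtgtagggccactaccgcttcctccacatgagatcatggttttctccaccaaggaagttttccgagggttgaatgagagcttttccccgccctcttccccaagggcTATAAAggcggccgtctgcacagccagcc

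The NF-kB letters were held by 0.356% of 32851 RefSeq windows of this length, and TATAAA by 12.4%. In the Ltb window GGAAAGTCCC, the motif read from the other strand, lies 87 to 78 bases before the start. TATAAA lies 29 to 24 bases before the start of Tnf. The RefSeq window of Lta belongs to a start inside the gene span given above and is not shown. A match is a description of the letters and not of binding.

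Ltb was 324 and 295 CPM in B1a cells and 314 and 332 CPM in B2 cells. The groups overlapped, and the 95% interval of the log2 fold change ran from -0.36 to 0.24 (edgeR). Lta was 7.26 and 14.7 CPM in B1a cells and 36.3 and 26.9 CPM in B2 cells. Both B2 libraries were above both B1a libraries, with a B2 mean 2.88-fold higher, but the log2 fold change of -1.53 (SE 0.50) missed the threshold (adjusted p = 0.158, edgeR). Tnf was 9.50 and 9.44 CPM in B1a cells and 23.2 and 19.4 CPM in B2 cells. Here too the groups did not overlap, the B2 mean was 2.24-fold higher, and the log2 fold change of -1.17 (SE 0.47) missed the threshold (adjusted p = 0.233). Without B1a replicate 1 or 2, both Lta and Tnf passed, whereas without B2 replicate 1 or 2 neither did (adjusted p = 0.994 and 0.579 for Lta and 0.99989 and 0.99991 for Tnf).

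Set against their neighbour within each library, which removes the scaling between libraries, Lta had 22.4 and 49.7 counts per 1000 Ltb counts in B1a cells and 116 and 81.0 in B2 cells. Tnf had 29.3 and 32.0 counts per 1000 Ltb counts in B1a cells and 73.8 and 58.5 in B2 cells. Neither ratio overlapped between the cell types. With 2 libraries against 2, an exact permutation test cannot pass 0.05, and none was run on the ratios.

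Tgfb1 encodes TGF-beta 1, secreted in a latent form that must be released before it acts, and lies on chromosome 7 at 25687002 to 25705077. It was 221 and 174 CPM in B1a cells and 298 and 301 CPM in B2 cells. The B2 replicates were nearly equal and both above the B1a replicates, with a mean 1.52-fold higher. The log2 fold change of -0.60 (SE 0.16, 95% interval -0.99 to -0.21) missed the threshold over all genes (adjusted p = 0.0986, edgeR), and it passed in 4 of the 11 alternatives that kept all libraries, where adjusted p ran from 0.00877 to 0.106. It also passed without B1a replicate 1 or 2 and did not without B2 replicate 1 or 2 (adjusted p = 0.399 and 0.461). The Tgfb1 window before the start was the richest in G and C of the cytokine windows, at 75.2% against a median of 52.4% over all windows.

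Csf1 encodes M-CSF, the growth factor of macrophages, and lies on the minus strand of chromosome 3 at 107741048 to 107760469. It was 32.6 and 9.35 CPM in B1a cells and 8.58 and 7.32 CPM in B2 cells. The groups did not overlap, but B1a replicate 2 was close to the B2 libraries and the B1a replicates differed by 3.49-fold. The log2 fold change was 1.40 (SE 0.71, 95% interval -0.35 to 3.15, adjusted p = 0.344, edgeR), and it was 0.23 without B1a replicate 1 and 2.04 without B1a replicate 2, where it passed. The mean transcript length that the quantification assigned to Csf1 was 2707 and 2790 bases in B1a cells and 3634 and 3283 bases in B2 cells, beside annotated forms of 4176, 3058 and 2097 bases. The mean was shorter in both B1a libraries, with 98.9 and 140 Csf1 counts behind the B2 values, and the forms were not tested.

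The windows of Csf1 and Il6 are shown because they were the other 2 cytokine windows with an NF-kB match. They are at chr3:107760470-107760719 and chr5:30012864-30013113, with the match in capitals.
Csf1: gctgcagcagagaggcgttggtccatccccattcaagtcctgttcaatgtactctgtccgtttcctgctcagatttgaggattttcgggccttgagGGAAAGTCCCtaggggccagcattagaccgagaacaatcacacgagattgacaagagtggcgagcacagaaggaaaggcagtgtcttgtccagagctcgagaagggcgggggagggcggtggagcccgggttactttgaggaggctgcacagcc
Il6: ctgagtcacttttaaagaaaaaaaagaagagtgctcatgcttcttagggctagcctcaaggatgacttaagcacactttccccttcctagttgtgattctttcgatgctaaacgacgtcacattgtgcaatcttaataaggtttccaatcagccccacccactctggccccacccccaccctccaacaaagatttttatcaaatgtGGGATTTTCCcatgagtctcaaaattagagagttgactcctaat

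The match lies 154 to 145 bases before the start in Csf1 and 44 to 35 bases before it in Il6. The 3 genes with these letters were thus at 295 to 332 CPM (Ltb), at 7.32 to 32.6 CPM (Csf1) and at 0 (Il6). RefSeq windows were found for 9 of the 10 genes, Il10 being without one.

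**Figure D3:**
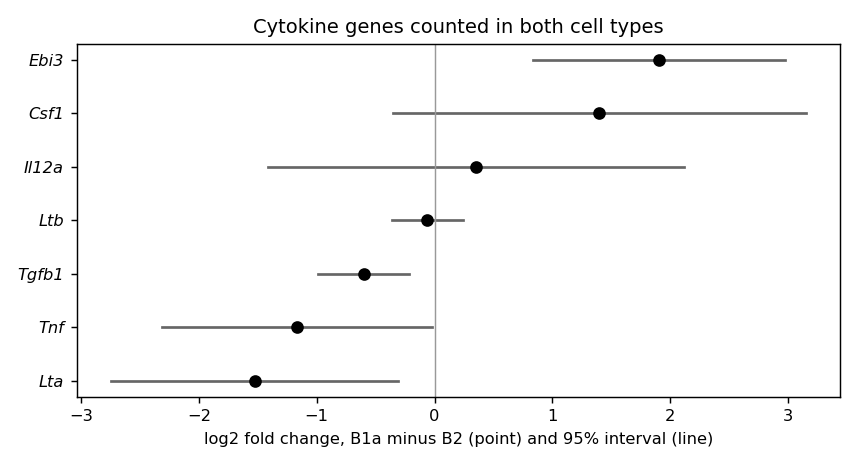
Log2 fold change (B1a minus B2, x axis) of the 7 cytokine genes counted in both cell types, as points with 95% intervals from the edgeR quasi-likelihood fit. The intervals of Ebi3, Tgfb1, Tnf and Lta leave out 0 before adjustment over all genes, whereas those of Csf1, Il12a and Ltb include it; Il10 is not drawn because it had no counts in B2 cells.

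The receptors of these cytokines were counted in the same cells. Of 18 receptor genes, 17 were tested, 4 rose in B1a cells and none passed in the other direction, beside 4.24% and 1.5% of all genes tested (median log2 fold change 0.31, against -0.03 for all genes). Csf2rb, the shared beta chain of the receptors for GM-CSF, IL-3 and IL-5, was 542 and 427 CPM in B1a cells and 22.7 and 24.9 CPM in B2 cells (log2 fold change 4.34, SE 0.19, adjusted p = 0.00054, edgeR). Its near-identical neighbour Csf2rb2, 61.2 and 94.9 CPM against 73.4 and 52.6 CPM, can share reads with it, so the division between them is uncertain. Il6st (gp130), the signalling chain of the IL-6 and IL-27 receptors, was 460 and 716 CPM against 37.3 and 35.2 CPM (log2 fold change 4.02, SE 0.25, adjusted p = 0.00145). Il6ra, the chain that binds IL-6, was 126 and 151 CPM against 40.1 and 45.8 CPM (log2 fold change 1.69, SE 0.20, adjusted p = 0.00904). Il6ra missed the threshold on log2(TPM + 1) values with no filter (adjusted p = 0.0532), in a range from 5.64e-09 over the alternatives with all libraries. Csf2ra, the chain particular to the GM-CSF receptor, was 18.3 and 41.6 CPM against 17.3 and 13.99 CPM and did not pass (adjusted p = 0.373), a gene given after its values were seen.

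Tnfrsf1b, a TNF receptor, was 96.1 and 138 CPM in B1a cells and 30.1 and 24.4 CPM in B2 cells (log2 fold change 2.10, SE 0.27, adjusted p = 0.0117, edgeR). Ltbr, the receptor for membrane lymphotoxin, had 0 counts in both B1a libraries and 6 and 1.01 in the B2 libraries, so the B cells that held much Ltb mRNA held little of its receptor's. On log2(TPM + 1) values Tnfrsf1b did not pass (adjusted p = 0.0535), and over its 11 alternatives with all libraries the adjusted p ran from 5.01e-09 to 0.0699. The other 13 tested receptor genes did not pass.

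**Figure D4:**
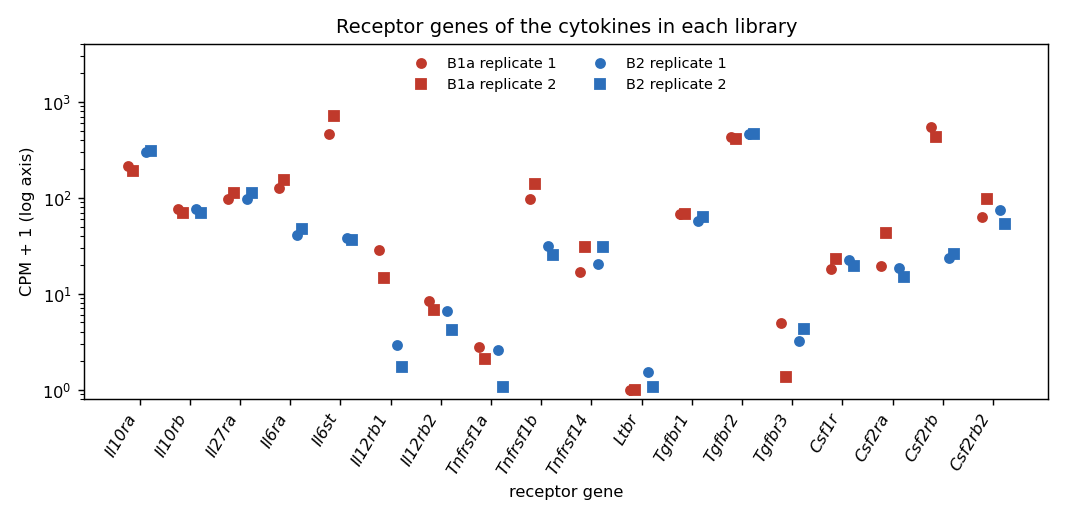
CPM + 1 (log axis) of the 18 receptor genes in each library, red for B1a and blue for B2 cells, circles for replicate 1 and squares for replicate 2. Il6ra, Il6st, Tnfrsf1b and Csf2rb lie higher in B1a cells with no overlap, and Ltbr lies at the baseline in B1a cells.

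Among 17 genes for partner subunits and for the processing of TNF and TGF-beta, 12 were tested. Of these, 2 rose in B1a cells, beside 4.24% of all genes tested. Thbs1, thrombospondin 1, which can release active TGF-beta, was 22.4 and 38.7 CPM in B1a cells and 1.13 and 2.51 CPM in B2 cells (log2 fold change 4.04, SE 0.67, adjusted p = 0.0262, edgeR). Rhbdf1, an inactive rhomboid that helps the TNF-shedding protease ADAM17 mature, was 125 and 59.0 CPM against 16.0 and 13.7 CPM (log2 fold change 2.63, SE 0.42, adjusted p = 0.0227). Adam17 itself was 101 and 113 CPM against 129 and 125 CPM and did not pass (adjusted p = 0.467), a gene given after its values were seen. On log2(TPM + 1) values neither Thbs1 (adjusted p = 0.078) nor Rhbdf1 (adjusted p = 0.061) passed, and over the alternatives with all libraries the largest adjusted p was 0.108 and 0.081.

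Of 23 regulators of cytokine transcription, all were tested (median log2 fold change 0.42). Of these, 8 rose in B1a cells and 1 was higher in B2 cells, beside 4.24% and 1.5% of all genes tested. Atf3, a stress-induced factor, was 391.99 and 309 CPM in B1a cells and 1.04 and 1.10 CPM in B2 cells (log2 fold change 8.34, SE 0.25, adjusted p = 0.0003, edgeR). Nfil3, a basic leucine zipper factor tied to IL-10 expression, was 59.9 and 14.2 CPM against 0.607 and 0.470 CPM (log2 fold change 6.10, SE 0.92, adjusted p = 0.0195). With 7 and 9 counts in the B2 libraries, Nfil3 passed the filter on low counts only through the B1a libraries. It could not be tested with 10 counts required in every library. Bhlhe41, a factor known for its role in B1a cells, was 443 and 350 CPM against 23.4 and 25.9 CPM (log2 fold change 4.01, SE 0.19, adjusted p = 0.000683). These 3 genes, like Il10, were higher in B1a replicate 1 than in replicate 2, although Atf3 and Bhlhe41 differed less between them than Il10. Prdm1, given next, was higher in replicate 2. In the same list Maf was lower in both B1a libraries, at 0.169 and 3.66 CPM against 10.02 and 10.17 CPM. Its log2 fold change of -2.38 (SE 1.42) missed the threshold (adjusted p = 0.422, edgeR), with only 1.89 counts in B1a replicate 1. Batf was also lower in both, at 0.448 and 7.82 CPM against 8.50 and 8.15 CPM, and did not pass (adjusted p = 0.757). Maf and Batf were named after their values were seen.

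Prdm1 (Blimp-1), which drives plasma cell differentiation and is tied to IL-10 in several lymphocytes, was 22.4 and 36.2 CPM in B1a cells and 4.16 and 4.13 CPM in B2 cells (log2 fold change 2.82, SE 0.51, adjusted p = 0.0346, edgeR). Without B2 replicate 1 or 2 it did not pass (adjusted p = 0.122 or 0.138). Summed over 6 plasma cell genes, Prdm1 among them, CPM was 457 and 645 in B1a cells and 345 and 388 in B2 cells, with 4 of the 6 above 3 counts in both B1a libraries and Tnfrsf17 (BCMA) at 0 in all 4. Most of that sum was Irf4 (355 and 530 CPM against 263 and 274 CPM), which other B cells also express, and Sdc1 (CD138) was 0 and 8.27 CPM in B1a cells and 13.4 and 25.2 CPM in B2 cells. The part of plasma cells in the Prdm1 value was not tested. Irf8, a factor of B cell and myeloid differentiation, was lower in B1a cells at 116 and 103 CPM against 395 and 386 CPM (log2 fold change -1.84, SE 0.13, adjusted p = 0.00236). Fos, Cebpb, Nfkbiz and Nfatc1 also rose in B1a cells. On log2(TPM + 1) values Nfil3 (adjusted p = 0.057) and Prdm1 (adjusted p = 0.107) did not pass, and the largest adjusted p over the alternatives with all libraries was 0.0864 and 0.152.

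Proteins that bind cytokine mRNAs and set how long they last showed 1 call among 12 tested genes, beside 5.74% of all genes tested (median log2 fold change -0.38). A single call does not set this list apart from all genes. Zc3h12c, of the Regnase family of RNA-degrading enzymes, was 65.0 and 56.6 CPM in B1a cells and 19.4 and 21.6 CPM in B2 cells (log2 fold change 1.56, SE 0.27, adjusted p = 0.0295, edgeR). It did not pass without B2 replicate 1 or 2 (adjusted p = 0.235 or 0.153) or on log2(TPM + 1) values (adjusted p = 0.144), and its range over the alternatives with all libraries was 0.000379 to 0.189.

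Of 13 surface markers used for regulatory B cells, all were tested, with a list median log2 fold change of 1.58. Of these, 6 rose in B1a cells, beside 4.24% of all genes tested. Nt5e (CD73), which makes adenosine, was 40.3 and 28.96 CPM in B1a cells and 1.56 and 2.20 CPM in B2 cells (log2 fold change 4.19, SE 0.52, adjusted p = 0.01, edgeR). Cd80, a ligand of CD28 and CTLA-4, was 64.9 and 54.0 CPM against 2.07 and 4.51 CPM (log2 fold change 4.15, SE 0.48, adjusted p = 0.00866). Cd9, a tetraspanin, was 28.8 and 89.8 CPM against 3.79 and 5.44 CPM (log2 fold change 3.67, SE 0.63, adjusted p = 0.03). Pdcd1lg2 (PD-L2), a ligand of PD-1 found on B1 cells, was 120 and 81.6 CPM against 28.3 and 21.9 CPM (log2 fold change 2.01, SE 0.29, adjusted p = 0.0178). Cd274 (PD-L1) and Cd24a also rose in B1a cells. Cd9 and Pdcd1lg2 missed the threshold on log2(TPM + 1) values (adjusted p = 0.0539 and 0.0584), with a largest adjusted p of 0.0782 and 0.075 over the alternatives with all libraries. Nt5e missed it on log2(TPM + 0.1) values (adjusted p = 0.0623) and on log2(TPM + 1) values with no filter (adjusted p = 0.0773), in a range from 1.48e-10.

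CD5 and CD1d, by which IL-10-competent B cells are often sorted, gave no call. Cd5, part of the B1a sort, was 15.9 and 22.4 CPM in B1a cells and 5.47 and 2.25 CPM in B2 cells (adjusted p = 0.146, edgeR), and Cd1d1 was 22.0 and 15.6 CPM against 28.7 and 35.4 CPM (adjusted p = 0.323). These 2 genes were chosen after their values were seen.

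Of 43 other cytokines and ligands of the TNF family, 17 were at or under 3 counts in every library. The test took 18 of them, and 1 rose in B1a cells, beside 4.24% of all genes tested. That gene, Tnfsf8, encodes the ligand of CD30 and had 380 and 351 counts in B1a cells and 4 and 0 counts in B2 cells, or 34.1 and 31.6 CPM against 0.347 and 0 CPM (adjusted p = 0.0201, edgeR). Like Il10, Tnfsf8 passed the filter on low counts only through the B1a libraries. It could not be tested with 10 counts required in every library. Over its alternatives with all libraries the adjusted p ran from 5.25e-13 to 0.0531. Il2, Il3, Il4, Il5, Il13 and Il17a, cytokines of T helper cells, had 0 counts in all 4 libraries.

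Across the 6 lists, 23 of 95 tested genes passed, 22 of them higher in B1a cells, beside 5.74% of all genes tested in either direction and 4.24% higher in B1a cells. Because the lists were chosen with earlier results of these data known, these counts are a description and not a test of the lists. The count was 19 and 20 without B2 replicate 1 or 2, and 51 and 59 without B1a replicate 1 or 2.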

How the data were processed

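RNA-Seq libraries of 2 B1a and 2 B2 samples were analyzed, grouped by the sample labels. Reads had been mapped by the authors to mm10 and assigned to RefSeq genes by RSEM (version 1.2.29 in the submitters' processing notes, whereas the methods name another). The labels name a kit that depletes ribosomal RNA, whereas the paper speaks of enriched polyadenylated RNA. The deposited expected count of a gene entry (21970 entries) is not normalized and shares out reads that match more than 1 entry. TPM values were deposited too and gave levels. The deposited FPKM values were not used. A deposited signal column with each count's posterior standard deviation was read to see how reads were divided between entries.

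Entries of 1 symbol were added up and rounded, low genes were removed by filterByExpr, and TMM scaling (factors 0.963 to 1.05) preceded the quasi-likelihood test of edgeR 4.0.16 in R 4.3.3. P-values were adjusted by Benjamini-Hochberg over 12078 genes, with a threshold of 0.05 and no fold minimum. Standard errors came from the F statistic. The study named EBSeq, which was not run here. Alternatives were DESeq2 1.42.0, limma 3.58.1 on TPM or counts, other scaling, other filters, a replicate block, unsummed entries and leaving out each library. Code was tested on simulated data.

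The cytokine genes, the other gene lists and the motifs were chosen with earlier results of these data known, and the motifs with the promoter sequences in view. From each list the text names the called genes, at most 4 in each direction by size of log2 fold change, and the receptor subunits of any called cytokine; other names were added after their values were seen. The 5 genes nearest to Il10 were taken by distance. Totals were 11032732 to 18588623 counts, and the floor of 3 counts covers counting error only. The methods name 2 mice per cell type, and p-values measure the spread between these samples. The other libraries and assays of the study were not analyzed here.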

Additional observations from a re-analysis of the deposited data

How the results depend on the processing

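Il10 missed the threshold in 1 of the 10 alternatives that kept all libraries and tested it, log2(TPM + 1) with no filter. Its direction could not change, because both B2 libraries had 0 counts. With at least 10 counts required in every library, Il10 could not be tested. The number of cytokine genes that passed, 1 of 8, was 3 with DESeq2, with limma-voom with group weights and with no filter beyond 1 count (Il10, Ebi3 and Tgfb1 each time), 4 with the replicate block (Lta besides), 0 on log2(TPM + 1) with no filter (where 202 of all genes passed), and 1 to 7 on leaving out 1 library. Of all genes, 693 passed, against 1562 with DESeq2, 1481 with the replicate block (889 higher in B1a cells and 592 lower), 1415 with limma-voom, 1141 with no filter, 359 on log2(TPM + 0.1) and 539 to 6143 on leaving out 1 library. Over the 6 gene lists together, 23 passed, against 35 with DESeq2, 36 with limma-voom, 10 on log2(TPM + 0.1), 15 on log2(TPM + 1), 8 on log2(TPM + 1) with no filter and 19 to 59 on leaving out 1 library. The highest counts came without a B1a library, when the spread is that of the B2 pair alone.

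The log2 fold change of Il12a changed sign to -0.037 with the replicate block, -0.29 on log2(TPM + 0.1), -0.27 on log2(TPM + 1) with or without the filter, -0.10 with limma-voom and ran from -1.23 to 1.08 on leaving out 1 library. That of Ltb ran from -0.13 to 0.0042 on leaving out 1 library. That of Il10rb was 0.012 with limma-voom and ran from -0.091 to 0.077 on leaving out 1 library. The median of all genes also shifted on the TPM scales, and the cause of these changes was not tested.

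Same-numbered replicates did not deviate together (correlation -0.003 over 12078 genes). With 2 libraries per group this cannot tell whether the numbers pair the samples. With unsummed entries, a choice made after the data were seen, Il10 alone passed, and the adjusted p of Lta and Tnf was 0.445 and 0.599 per entry. With 2 libraries per group and 3 counts as the floor, differences such as that of Il12a were within the spread of the B1a pair.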
